A study of Mus musculus with 3 samples.

Results

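Cysteine is decoded in the mouse by the largest set of near-identical tRNA genes among those counted here. All rows whose gene name gives cysteine as the amino acid were taken, which came to 61 of 446 nuclear tRNA genes. Of these, 60 carry the anticodon GCA, which is 13.5% of the tRNA genes, and 1 carries the anticodon ACA. Lys-CTT had 26 genes, Ala-AGC 23, Asp-GTC 16 and Gly-GCC 15. The rule uses the gene name and no threshold on a measured value.

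Short RNA was sequenced in 3 libraries from the epididymis, where sperm are stored and mature. The wild type group has 1 library and the Alkbh3-/- group, mice without the RNA and DNA demethylase ALKBH3, has 2 libraries, and none of the tissue was treated. The allele, the age, the pooling of animals and the genetic background are not given. The wild type column name begins with B6 and the others do not, so a difference of background and the genotype cannot be told apart. The letters A and B stand for the Alkbh3-/- libraries in the order of the deposited columns, because those names cannot be matched to the replicate numbers in the labels. Reads in 5 RNA classes summed to 15107055 in wild type, 15411457 in A and 21169908 in B, and levels are given as RPM, reads per 1000000 reads of these sums. Whether A and B are separate animals is not known, so each p-value reflects the spread among these libraries alone, and that spread may be technical. With 1 library against 2 the smallest exact permutation p is 0.33, so no single value could pass such a test on its own. Alkbh3 RNA and epididymal marker genes were not analysed here, so genotype and tissue were not checked against the RNA.

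A cytosolic tRNA with the anticodon GCA reads both cysteine codons, UGC and UGU. When a mature tRNA is cut in its anticodon loop, the 5′ piece can persist as a stable small RNA. In human cells, 5′ pieces of tRNA-Cys and tRNA-Ala that begin with a run of guanines inhibit translation, and in mouse breast cancer cells a 5′ piece of tRNA-Cys binds nucleolin. ALKBH3 is known to remove 1-methyladenosine and 3-methylcytidine from tRNA, and its loss in human cells alters tRNA cleavage. Epididymal epithelium is known to release tRNA fragments that sperm take up.

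The cysteine genes are concentrated in one stretch of the genome. In mm10 (GRCm38), 53 copies lie on chromosome 6, 5 on chromosome 11, 2 on chromosome 9 and 1 on chromosome 17. Of the chromosome 6 copies, 52 fall within chr6:48133937-48364516, a span of 230580 bp with a median gap of 3193 bp between neighbours, 21 on the plus strand and 31 on the minus strand. The other chromosome 6 copy, Cys-GCA-3-1, stands 154868 bp away from them at chr6:47978997-47979068 on the plus strand. By the GENCODE M21 annotation, 7 copies lie in introns of the long non-coding RNA gene Gm16630, none in an exon, and 54 lie between genes. For 56 of the 61, start and end equalled those of a tRNA in RefSeq GRCm38.p6, and 56 copies are 72 nt long.

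Copies whose names share the first number after the anticodon are taken here to share a mature sequence, as in the usual naming of tRNA genes, and are called a type. By that reading there were 28 types of tRNA-Cys. Type 4 alone had 29 copies, 28 of them in the chromosome 6 stretch and 1 on chromosome 9. Type 3 had 4 copies, type 1 had 2 and the other 25 types had 1 each. The authors' way of dividing a read among matching copies was not given in the sources used here, so a count of a single copy within a type is uncertain, and copies of a type are not independent.

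The cysteine tRNAs as a whole had a middling level and showed no difference between genotypes beyond the spread between libraries. Cys-GCA counts summed to 2199 in wild type, 2474 in A and 2975 in B, which is 145.6, 160.5 and 140.5 RPM. The Alkbh3-/- mean was 150.5 ± 14.1 RPM (SD, n = 2), and the wild type value lay between A and B. The ratio to wild type was 1.10 in A, with a 95% interval of 1.04 to 1.17, and 0.965 in B, with an interval of 0.913 to 1.02. All intervals given are exact or from counts and cover counting error only, since PCR copies are not independent molecules. The edgeR log2 fold change was 0.05 (SE 0.47) with an adjusted p of 0.919. In the same comparison 10.9% of 46 isoacceptors, the sets of tRNAs with one anticodon, were called at an adjusted p of 0.05, 2.17% as higher and 8.7% as lower, and the median log2 fold change was -0.29.

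As a share of all tRNA gene counts, Cys-GCA was 0.0548% in wild type (0.0525 to 0.0571), 0.0741% in A (0.0712 to 0.0770) and 0.0624% in B (0.0602 to 0.0647). On this scale both Alkbh3-/- libraries lay above wild type, at 1.35 times in A and 1.14 times in B. Counts over all tRNA genes were 4014098 in wild type, 3340218 in A and 4766609 in B, a smaller part of the class sums in both Alkbh3-/- libraries. The Cys-GCA log2 fold change stood 0.34 above the median isoacceptor and ranked 18 of 46. That distance was not tested.

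A large gene number did not go with a large number of reads. Cys-GCA ranked 15 of the 50 isoacceptors with reads. Its mean over the 3 libraries was 2.48 RPM per gene, against 0.819 for Ala-AGC, 58.9 for Asp-GTC, 252 for Lys-CTT and 10009 for Gly-GCC. These are levels of fragments of genes of nearly equal length. Among those families edgeR called Gly-GCC lower, with a log2 fold change of -0.54 (SE 0.08) and an adjusted p of 3.1e-07. Lys-CTT (-0.14, SE 0.32), Asp-GTC (-0.09, SE 0.51) and Ala-AGC (0.18, SE 0.30) did not pass.

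The isoacceptors nearest to Cys-GCA in level were Val-TAC, Pro-TGG and Pro-AGG. Val-TAC stood at 201.8 RPM in wild type, 99.99 in A and 127.8 in B, with a log2 fold change of -0.82 (SE 0.45) and an edgeR adjusted p of 0.257. Pro-TGG stood at 155.6, 212.4 and 149.7 RPM and Pro-AGG at 167.9, 223.0 and 160.1 RPM, with edgeR adjusted p of 0.754 for each. In the proline pair, as in Cys-GCA, A was the highest library and B lay just under wild type.

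Within the family, the copies with the highest levels lie outside the chromosome 6 stretch. The 8 copies with the highest mean level were the 4 of type 3, the 2 of type 1, Cys-GCA-2-1 and Cys-GCA-5-1, and they spanned 4.04 to 11.5 RPM over the 3 libraries. None of them is in the stretch at chr6:48133937-48364516, and together they held 40.8% of Cys-GCA counts in wild type, 38.9% in A and 50.9% in B. The 29 copies of type 4 spanned 1.37 to 3.18 RPM, and 9 single-copy types spanned 1.18 to 3.11 RPM. A further 3 copies spanned 0.378 to 1.06 RPM. The remaining 12 had under 10 reads over the 3 libraries and were not tested.

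**Figure D1:**
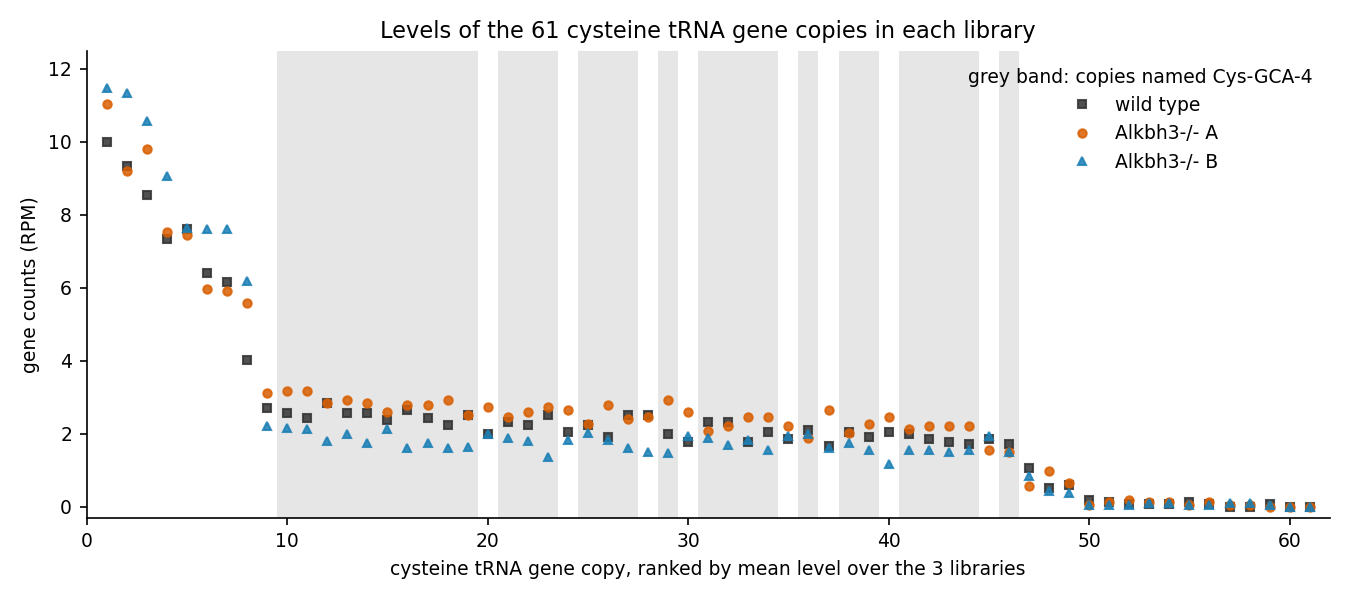
Level of each cysteine tRNA copy in RPM on a linear axis, with 1 point per copy for wild type, for A and for B. The 8 copies of types 1, 2, 3 and 5 sit between 4.04 and 11.5 RPM and the 29 copies of type 4 between 1.37 and 3.18 RPM in every library.

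Cys-GCA-3-4, at chr11:97988923-97988994 on the minus strand, had the most reads, 151 in wild type, 170 in A and 243 in B, or 10.0, 11.03 and 11.5 RPM. Its neighbour Cys-GCA-3-3, 605 bp away on the same strand, had 141, 142 and 240 reads, or 9.33, 9.21 and 11.3 RPM. Cys-GCA-2-1, at chr11:97798906-97798977 on the minus strand, had 8.54, 9.80 and 10.6 RPM. In these 3 copies B was the highest library.

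Cys-GCA-3-1, the lone chromosome 6 copy, had 7.35, 7.53 and 9.07 RPM, and Cys-GCA-3-2, at chr11:97797072-97797143 on the plus strand, had 7.61, 7.46 and 7.65 RPM. The copies of type 1, on chromosomes 9 and 17, were almost equal, with 93 and 97 reads in wild type, 91 and 92 in A, and 161 and 161 in B. Cys-GCA-5-1, at chr11:97769826-97769900 on the minus strand and 75 nt long, had 61, 86 and 131 reads, or 4.04, 5.58 and 6.19 RPM. The edgeR log2 fold changes of these 8 copies ran from -0.01 to 0.54 and none passed.

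The type 4 copy off chromosome 6, Cys-GCA-4-29, lies 3864 bp from Cys-GCA-1-1 on chromosome 9. It had 32, 29 and 42 reads, or 2.12, 1.88 and 1.98 RPM, within the range of the other type 4 copies, and Cys-GCA-1-1 had 6.16, 5.90 and 7.61 RPM. If type 4 reads were divided among copies, the count is even by construction, so the place and the sequence of this copy cannot be told apart.

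No single copy passed the test between genotypes. Of 49 copies tested, 0 were called by edgeR at an adjusted p of 0.05, where 10.9% of all 367 tRNA genes tested were called. None had an unadjusted p under 0.05 in edgeR, and DESeq2 also called 0. DESeq2 gave no adjusted p for some of the copies, among them Cys-GCA-8-1, Cys-GCA-10-1 and Cys-GCA-14-1. The median log2 fold change was -0.02 over the cysteine copies and -0.15 over all tested genes, and the copies ranged from -0.53 to 0.54.

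The largest shifts with one direction in both Alkbh3-/- libraries were modest. Upward these were Cys-GCA-5-1 (log2 fold change 0.54, SE 0.44), Cys-GCA-10-1 (0.33, SE 0.46) and Cys-GCA-2-1 (0.26, SE 0.46). Downward they were Cys-GCA-8-1 (-0.53, SE 0.63), Cys-GCA-14-1 (-0.36, SE 0.44) and Cys-GCA-4-9 (-0.35, SE 0.44). All 6 had edgeR adjusted p of 0.663 or higher. Cys-GCA-8-1 rested on 16, 9 and 18 reads.

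**Figure D2:**
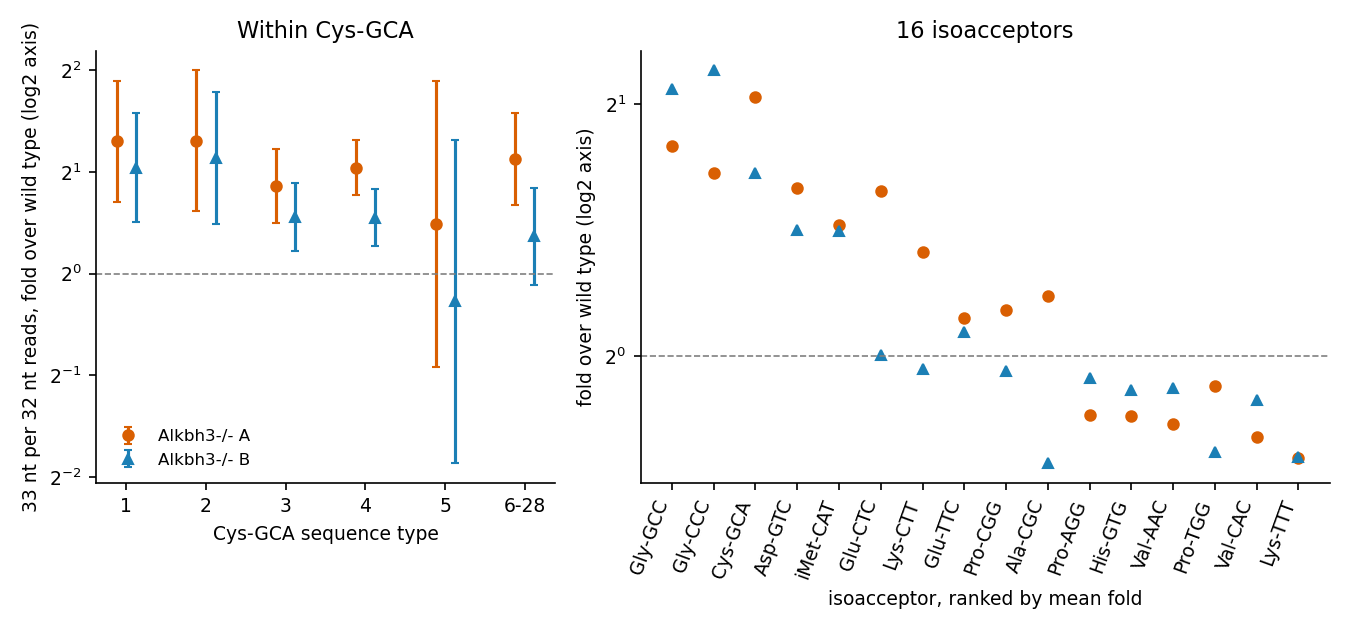
Left, reads of 33 nt per read of 32 nt in each Cys-GCA sequence type, as fold over wild type in A and B with 95% intervals. Right, the same fold in 16 isoacceptors, where Cys-GCA is at 2.04 in A and 1.66 in B. Both axes of fold are log2.

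The 2 Alkbh3-/- libraries stood on opposite sides of wild type for most tested copies, largely those of type 4. Among 49 tested copies, 29 were above wild type in A and below it in B, against 16.1% of all tested tRNA genes. A further 5 were below in A and above in B. Only 7 copies were above wild type in both, against 22.1% of all genes, and 8 were below in both, against 47.4% of all genes. Type 4 made up most of the split, with 22 of its 29 copies above wild type in A and below it in B. Of these 29 copies, 23 were above wild type in A and 28 below it in B. Copies of a type are not independent, so these counts are not separate observations. Of the 8 copies of types 1, 2, 3 and 5, 0 showed this split, 4 were above wild type in both libraries and 4 in B only.

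Summed over its copies, type 4 had 977 reads in wild type, 1116 in A and 1070 in B, which is 64.7, 72.4 and 50.5 RPM. The ratio to wild type was 1.12 in A (1.03 to 1.22) and 0.782 in B (0.716 to 0.853). Types 1 to 3 together had 837, 877 and 1383 reads, or 55.4, 56.9 and 65.3 RPM. Their ratio was 1.03 in A (0.933 to 1.13) and 1.18 in B (1.08 to 1.29). In RPM, library B thus lay below wild type for type 4 and above it for types 1 to 3, and library A did not show this.

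Type 4 took 44.4% of Cys-GCA counts in wild type, 45.1% in A and 35.97% in B, and types 1 to 3 took 38.1%, 35.4% and 46.5%. The 5 copies with most reads held 29.4%, 28.1% and 35.7%. Type 4 reads per read of types 1 to 3 came to 1.17, 1.27 and 0.774. The fragment tables, whose counts sum higher, gave 1.24, 1.31 and 0.799. The larger difference was between the 2 Alkbh3-/- libraries, and A and wild type were close, so this composition did not separate the genotypes. When counts were summed per type, edgeR called 0 of 17 cysteine types, against 7.33% of 191 types of all tRNAs. The log2 fold change was -0.07 (SE 0.44) for type 4, 0.13 (SE 0.43) for type 3, 0.11 (SE 0.39) for type 1, 0.26 (SE 0.37) for type 2 and 0.55 (SE 0.37) for type 5.

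**Figure D3:**
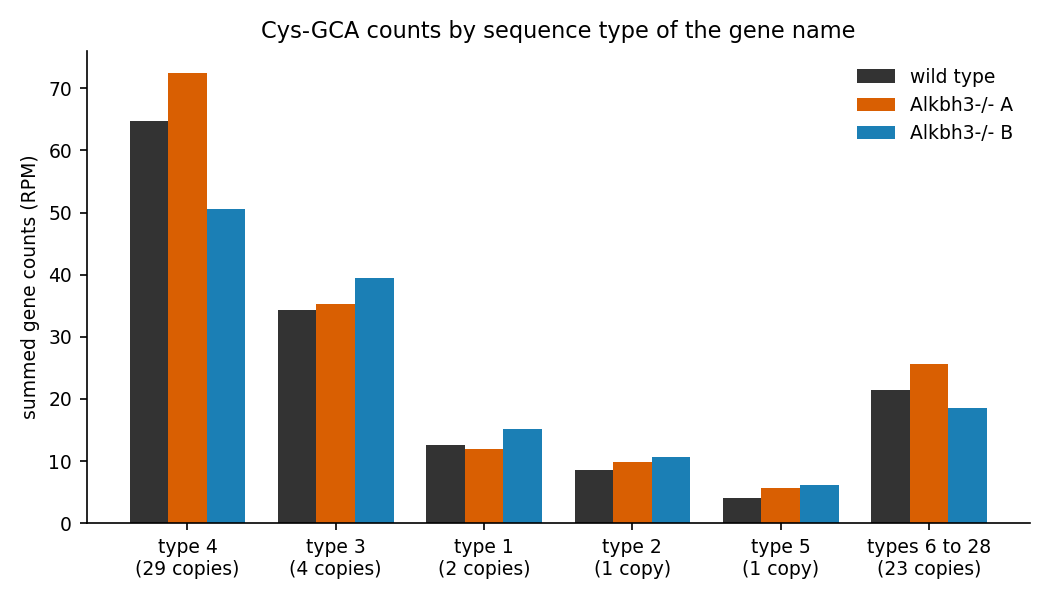
Levels of the cysteine tRNA sequence types in the 3 libraries, in RPM summed over the copies of each type. Type 4 stands at 64.7 RPM in wild type, 72.4 RPM in A and 50.5 RPM in B, while type 3 stands at 34.3, 35.2 and 39.5 RPM in wild type, A and B.

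Counts of copies within a type had different spreads. The 29 type 4 copies had 26 to 43 reads in wild type with a median of 34, 23 to 49 in A with a median of 38, and 29 to 46 in B with a median of 37. Their variance was 0.666, 0.977 and 0.566 times the mean. The 4 type 3 copies had 111 to 151, 115 to 170 and 162 to 243 reads, with variances of 2.95, 4.99 and 7.35 times the mean. Independent Poisson counts at equal levels would give a variance near the mean. Type 4 copies were near or under that value and type 3 copies were above it. How reads were divided among copies of a type is not known, so these spreads cannot speak to the levels of the copies.

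Cys-ACA, which bears another anticodon, had 0 reads in all 3 libraries of the gene table. A count of 0 allows up to 3 reads, or 0.199 RPM in wild type, 0.195 in A and 0.142 in B. The fragment table of library B listed 1 read for it. Cys-GCA-27-1 was likewise at 0 in the gene table and had 1 read each in A and B in the fragment tables. In all, 57, 58 and 59 of the 61 copies had reads in wild type, A and B.

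The fragment tables give reads by gene, length and end class, of which there are 2, unnamed by the authors. They hold 3410 Cys-GCA reads in wild type, 3872 in A and 4681 in B, or 225.7, 251.2 and 221.1 RPM. This is 1.55, 1.57 and 1.57 times the gene counts. Most of these reads belonged to the first end class and peaked sharply at 32 nt. No fragment sequence is in these tables, so which end of the tRNA the class denotes was not tested.

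The 32-nt fragment held 60.97% of Cys-GCA reads in wild type (59.3 to 62.6), 49.5% in A (47.9 to 51.1) and 51.7% in B (50.3 to 53.2). The 33-nt fragment held 15.6% (14.4 to 16.9), 25.9% (24.5 to 27.3) and 21.9% (20.8 to 23.2). The 34-nt fragment held 8.65%, 11.5% and 8.69%. Both Alkbh3-/- libraries were below wild type at 32 nt and above it at 33 nt, beyond counting error.

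**Figure D4:**
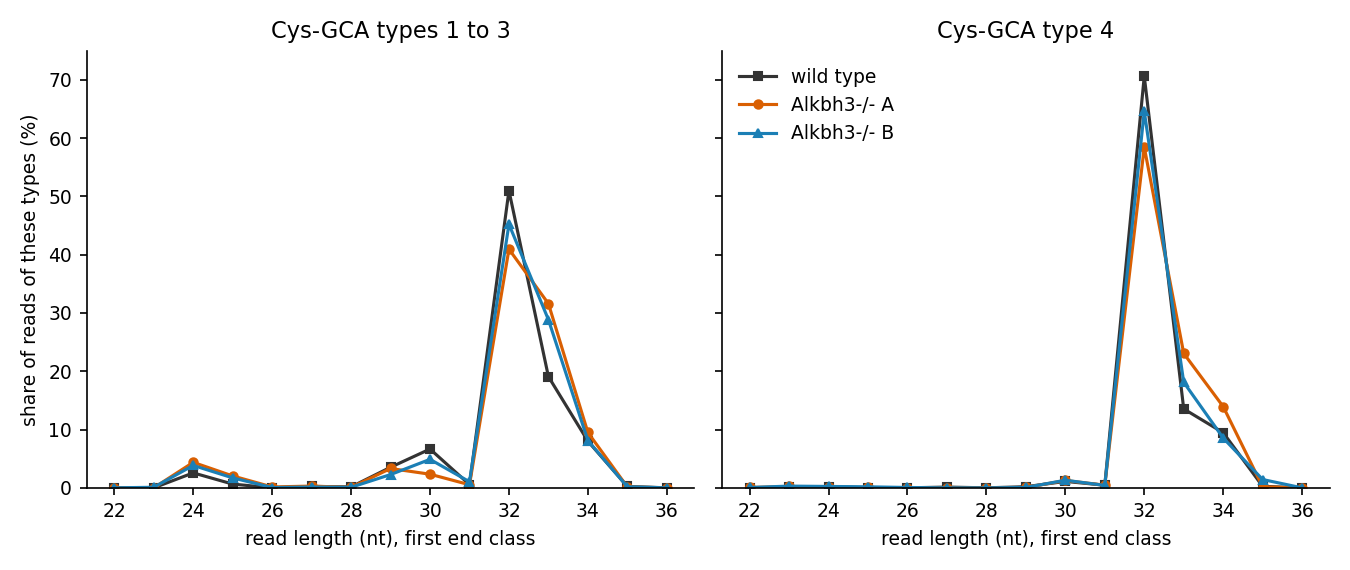
Length distribution of Cys-GCA fragment reads of the first end class in the 3 libraries, with types 1 to 3 and type 4 in separate panels. Each value is a percentage of the library's reads of those types at each length in nt. The 32-nt peak of types 1 to 3 is 51.002% in wild type, 41.0% in A and 45.2% in B. That of type 4 is 70.6%, 58.5% and 64.6%.

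As levels, the 32-nt fragment stood at 137.6, 124.5 and 114.4 RPM, with a log2 fold change of -0.20 (SE 0.48) and an edgeR adjusted p of 0.890. The 33-nt fragment stood at 35.2, 65.0 and 48.5 RPM, with log2 ratios to wild type of 0.88 in A and 0.46 in B. Its edgeR log2 fold change was 0.69 (SE 0.58) with an adjusted p of 0.659. Neither passed the test across fragments.

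Of 10 cysteine fragments tested, edgeR called 0, where 2.27% of 572 fragments of all tRNAs were called. Among the less abundant fragments of the first class, 34 nt had 295, 446 and 407 reads and 30 nt had 115, 60 and 133. The 24-nt fragment had 37, 61 and 87 reads, or 2.45, 3.96 and 4.11 RPM, with a log2 fold change of 0.72 (SE 0.67). The 53-nt fragment, beyond the 15 to 50 nt range cut from the gel, had 76, 72 and 79 reads. The 29-nt fragment had 51, 53 and 52 reads and the 31-nt fragment had 17, 18 and 34. The 54-nt fragment had 28, 9 and 41 reads and was not tested, having under 10 reads in A.

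The ratio of 33-nt to 32-nt reads does not depend on library size. It was 0.256 in wild type, 0.522 in A and 0.424 in B, an Alkbh3-/- mean of 0.473 ± 0.0691 (SD, n = 2). The fold over wild type was 2.04 in A (1.81 to 2.30) and 1.66 in B (1.47 to 1.87). The ratio was higher in both Alkbh3-/- libraries in each of types 1, 2, 3 and 4. For type 4 it went from 0.192 to 0.395 in A and 0.280 in B, and for types 1 to 3 from 0.374 to 0.772 and 0.638. Type 4 and types 1 to 3, which in B stood on opposite sides of wild type in level, thus stood on the same side in this ratio. Cys-GCA-5-1 was the exception among the named types, with folds of 1.40 (0.529 to 3.72) and 0.828 (0.275 to 2.49).

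Other tRNAs did not share one direction in this ratio. Over 16 isoacceptors with 1000 or more fragment reads and 20 or more reads at each of the lengths in each library, it was higher in both Alkbh3-/- libraries in 43.8%. Among the 15 others, 6 were higher in both, 6 lower in both and 3 mixed, with a median fold of 1.14 in A and 0.960 in B. Gly-GCC, at 1.78 and 2.09, and Gly-CCC, at 1.66 and 2.20, exceeded Cys-GCA in B, and in A Cys-GCA had the highest fold of the 16. Val-CAC, at 0.800 and 0.887, and Val-AAC, at 0.829 and 0.914, were lower in both. Whether the edges of the gel cut moved with this ratio was not tested.

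In overall length profile Val-CAC and Val-AAC were nevertheless the most like Cys-GCA. Over 23 isoacceptors compared, the summed absolute difference of shares by length and end class, averaged over 3 libraries, was 0.590 for Val-CAC, 0.647 for Val-AAC and 0.833 for Lys-CTT. Val-TAC, the other valine isoacceptor compared, was far less alike, at 1.59. The 32-nt share of Val-CAC was 49.9% in wild type, 50.3% in A and 47.9% in B, and that of Val-AAC was 48.9%, 48.8% and 46.6%. Cys-GCA exceeded both of them in wild type, at 60.97%, and in B, at 51.7%, and lay between them in A, at 49.5%.

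Reads of 32 to 34 nt made up 85.3%, 86.9% and 82.4% of cysteine fragment reads, against 14.6%, 21.8% and 19.6% over all other tRNA genes together. The window of 30 to 33 nt held 80.6%, 77.4% and 77.3% of cysteine reads, and 90.7%, 84.2% and 84.1% of the other genes' reads. The wild type library was highest in each set for this window. The other genes' values rest mostly on Gly-GCC, which had 2864610 of 4014098 wild type gene counts. Reads of 51 nt or more were 4.93%, 5.58% and 7.56% of cysteine reads and 0.146%, 0.213% and 0.236% of the other genes' reads. Among Cys-GCA reads, those of 51 to 55 nt in the first end class were 3.70%, 2.48% and 3.01%, highest in wild type. The 57-nt fragment of the second end class, all of it counted on Cys-GCA-5-1, was 0.880%, 2.61% and 3.95%.

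The types differed from one another in their short fragments. Reads of 24 to 25 nt were 3.21%, 6.41% and 5.55% of reads of types 1 to 3 and 0.194%, 0.172% and 0.416% of type 4 reads. Reads of 29 to 30 nt were 10.2%, 5.66% and 7.17% of types 1 to 3 and 1.30%, 1.32% and 1.37% of type 4. The 32-nt share was 51.002%, 41.0% and 45.2% in types 1 to 3 and 70.6%, 58.5% and 64.6% in type 4. The type difference held in each library, and both sets had a lower 32-nt share in A and B than in wild type.

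The second end class was small in the family, and its behaviour turned on one gene. It held 3.31% of cysteine reads in wild type, 3.87% in A and 5.66% in B, against 0.375%, 0.412% and 0.415% for all other tRNA genes. Without Cys-GCA-5-1 the cysteine share was 1.81%, 0.677% and 0.974%, so that wild type became the highest library. This split by gene was made after the values were seen.

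In Cys-GCA-5-1, the second class held 53 of 100 reads in wild type, 125 of 179 in A and 222 of 269 in B. These are 53.0% (42.8 to 63.1), 69.8% (62.5 to 76.5) and 82.5% (77.5 to 86.9). Its second class reads stood at 3.51, 8.11 and 10.5 RPM, and its first class reads at 3.11, 3.50 and 2.22 RPM. Both Alkbh3-/- libraries were above wild type in the second class alone.

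**Figure D5:**
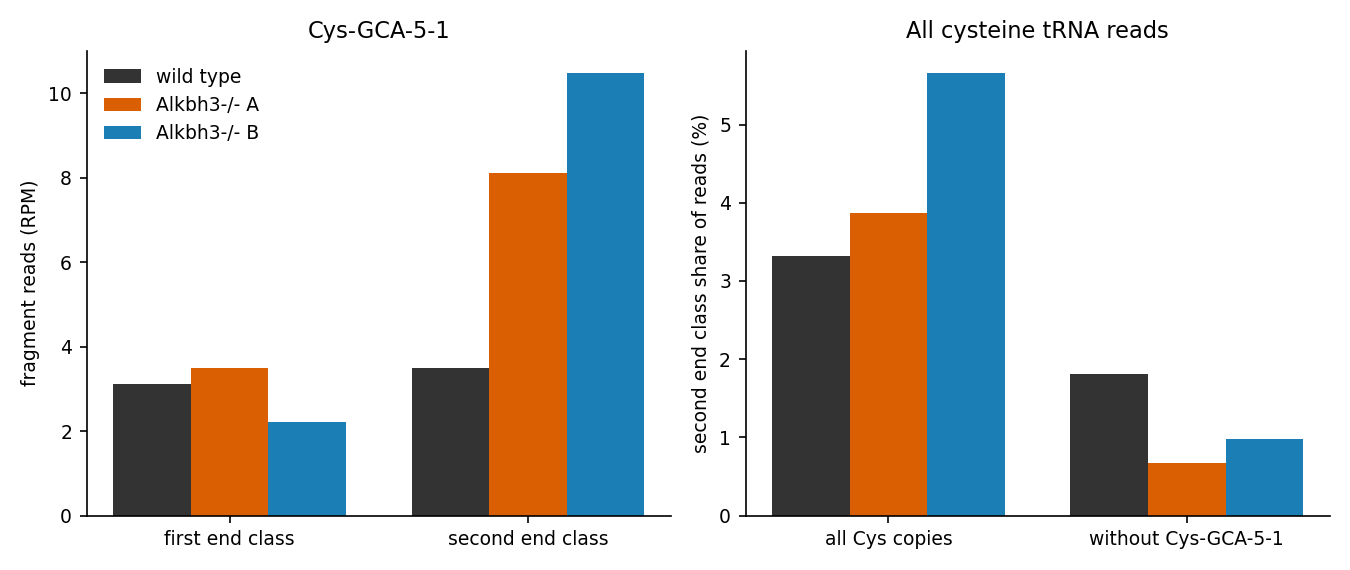
Left, fragment reads of Cys-GCA-5-1 in each end class in the 3 libraries, in RPM. Right, the second end class as a percentage of cysteine tRNA reads with and without Cys-GCA-5-1, which is 3.31% in wild type and 5.66% in B with that gene, and 1.81% and 0.974% without it.

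Most second class reads of this gene were 57 nt long. The 57-nt fragment had 30 reads in wild type, 101 in A and 185 in B, or 1.99, 6.55 and 8.74 RPM, and every one was counted on Cys-GCA-5-1. The Alkbh3-/- mean was 7.65 ± 1.55 RPM (SD, n = 2), and the log2 ratios to wild type were 1.72 and 2.14. The edgeR log2 fold change was 1.94 (SE 0.73, unadjusted p 0.00837), which did not pass with an adjusted p of 0.151. With TMM scaling edgeR gave an adjusted p of 0.0094 and DESeq2 gave 0.0216, so the call changed with the scaling within edgeR, and also under DESeq2, which differs in both scaling and model. With fragment sums as library sizes the edgeR adjusted p was 0.0576, which did not pass. Under the other read filters edgeR gave adjusted p of 0.222 and 0.286. Cysteine genes held 30 of 48, 101 of 112 and 185 of 200 of all second class reads of 57 nt among the tRNA genes. Such reads are longer than the range cut from the gel, and Cys-GCA-5-1 is not among the copies that match a RefSeq tRNA position.

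The other second class fragment with enough reads was 37 nt long. It had 44 reads in wild type, 15 in A and 22 in B, or 2.91, 0.973 and 1.04 RPM. The log2 fold change was -1.52 (SE 0.62), with an edgeR unadjusted p of 0.0146 and an adjusted p of 0.209. Type 3 copies held 27, 7 and 13 of these reads. Cys-GCA-7-1, a single-copy type, had 13 of 64, 6 of 75 and 5 of 72 reads in the second class, and type 4 had 2, 3 and 3 such reads in all.

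Related tRNAs were described by lists. The tRNAs listed as having 5′ pieces that begin with a guanine run were Ala-AGC, Ala-CGC, Ala-TGC and Cys-GCA. Of these, 4 were tested and 0 called, where 10.9% of all 46 isoacceptors were called. Their median log2 fold change was 0.17 against -0.29 over all isoacceptors. No sequences were available, so whether the pieces counted here begin with that run was not checked. Ala-CGC was at 0.36 (SE 0.54) and Ala-TGC at 0.16 (SE 0.33). The tRNAs with guanine as the first anticodon base, to which Cys-GCA belongs, had 9 of 13 tested, 0 higher and 2 lower, against 2.17% higher and 8.7% lower of all isoacceptors, with a median of -0.47. The 2 were Asn-GTT, at -1.92 with an edgeR adjusted p of 0.00046, and Gly-GCC. Cys-GCA was among the 7 that did not pass.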

How the data were processed

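The authors deposited raw read counts of 5 RNA classes, raw read counts of 446 tRNA genes, and per-library tables of read counts by tRNA gene, length and end class. Per the labels' protocols, 100 µg of total RNA was run on a 15% gel and 15 to 50 nt was cut, so intact tRNA was largely removed. The submitters' processing notes name cutadapt and mm10. Aligner, counting tool, source of the tRNA annotation and treatment of multi-mapping reads: not given in the sources used here. In the per-library tables, 6 columns of sums were not used.

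Counts were tested per gene and per isoacceptor (10 or more reads over the 3 libraries) and per fragment, that is isoacceptor, length and end class (10 or more reads in each library). The test was edgeR 4.0.16 (glmQLFit, glmQLFTest) in R 4.3.3, with the class sums as library sizes, no composition factor and Benjamini-Hochberg adjustment over all features. The model had 1 residual degree of freedom, so the spread came from the 2 Alkbh3-/- libraries, pooled over features. SE was derived from the log2 fold change and its F statistic. Only the per-gene fit was run on simulated counts, with changes larger than any seen in the cysteine copies. Alternatives were TMM scaling, tRNA sums as library sizes, DESeq2 1.42.0, other filters, the fragment tables and left-out libraries.

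The naming rule takes the 8 copies and 10 fragments with the highest mean RPM, all calls, the 3 largest rises and falls with 1 direction in both Alkbh3-/- libraries among copies averaging at least 10 reads, and the 3 isoacceptors nearest in level and in length profile. Other genes, and the 31-nt fragment, were named after their values were seen. Members, lists and tests were chosen with earlier results of these data known.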

Additional observations from a re-analysis of the deposited data

How the results depend on the processing

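No paired analysis was possible with only 1 wild type library, which also carries no replicate number in the labels. The Cys-GCA log2 fold change, 0.05 as reported, was -0.051 without library A and 0.14 without library B, where each fit leaves 1 library a group and gives no test. It was 0.22 with TMM, 0.32 with tRNA sums as library sizes and 0.38 with DESeq2, and did not pass in any of them. The median isoacceptor moved with the scaling, from -0.29 to -0.13 with TMM and -0.03 with tRNA sums. No cysteine copy was called under any alternative run, while calls over all 367 genes went from 40 to 17 with TMM, 21 with tRNA sums and 18 with DESeq2. Cysteine fragments called went from 0 to 1 with TMM and 1 with DESeq2, the 57-nt second class fragment, while calls over all 572 fragments went from 13 to 52 and 32. The log2 fold change of that fragment was 1.93 and 2.01 there. No cysteine fragment was called with fragment sums as library sizes or under the other filters.

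The 30 to 33 nt share differed by -3.22 percentage points as reported, by -5.57 without the 5 copies with most reads and by -1.52 for 30 to 36 nt, and from -3.29 to -3.16 with 1 Alkbh3-/- library left out. The second class share differed by 1.45 points, by 3.32 without those 5 copies, by -0.987 without Cys-GCA-5-1, and from 0.56 to 2.35 with a library left out. The share on the 5 copies with most reads differed by 2.44 points, and by -1.37 without library B and 6.24 without library A. The 33-nt per 32-nt ratio differed by 0.217, by 0.277 without type 4, and by 0.168 to 0.266 with a library left out. Cys-GCA-3-2, at -0.01, was 0.12 with TMM, 0.26 with tRNA sums, 0.18 with DESeq2 and 0.037 in the fragment tables. With fragment sums as library sizes, the 29-nt, 32-nt and 53-nt fragments were at 0.085, 0.080 and 0.023. The cause of these moves was not tested. The alternatives per sequence type, without Cys-GCA-5-1 and without type 4 were chosen after seeing the data.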
